A study of Mus musculus with 8 samples.

Results

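The genes that build hair were followed in dorsal skin of 8 female BALB/c mice. The members were 75 of the 22740 genes in the count table, which is labelled protein-coding. They were taken by symbol: 21 hair follicle keratins (Krt25 to Krt28, Krt31 to Krt36, Krt71 to Krt75 and Krt81 to Krt87, as far as listed), both trichohyalin genes (Tchh and Tchhl1) and 52 keratin-associated protein genes (symbols starting with Krtap). All mice were fed a low-fibre diet from weaning. The age listed for every mouse was 6 to 8 weeks, which need not be the age at sampling. The paper states this age for mice at the start of allergen exposure and gives no age at skin collection. The 4 groups held 2 mice each. Baseline CTL mice drank water and met no allergen, and baseline butyrate mice drank 400 mM sodium butyrate for 2 weeks. Lesional CTL and lesional butyrate mice drank the same fluids for 2 weeks before exposure and throughout it. They also received 4 applications of 15 ug house dust mite extract to shaved dorsal skin under a patch over 2 weeks. The exposure gives atopic dermatitis-like skin inflammation. Whole excised skin was sequenced, so fewer follicle cells and less RNA per follicle cell cannot be told apart. The label numbers also differ between the unexposed and the exposed mice. No group is labelled as shaved and patched without allergen. Effects of the allergen, of shaving and patching, of age or time on butyrate and of different sets of mice cannot be told apart. Nothing in the labels says whether the mice of a group came from separate litters or cages, and p-values measure the spread between these samples.

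The hair follicle builds a keratin fibre, the shaft, inside a sleeve called the inner root sheath. Shaft keratins pair as an acidic type I chain (Krt31 to Krt36) with a basic type II chain (Krt81 to Krt87), and keratin-associated proteins fill the space between the filaments and are tied to them by disulfide bonds. The inner root sheath has its own pairs (type I Krt25 to Krt28, type II Krt71 to Krt74), embedded in trichohyalin, and Krt75 is the keratin of the companion layer that lies between this sheath and the outer root sheath. Follicles cycle through growth, regression and rest, and the shaft and the inner root sheath are made in the growth phase.

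The 52 Krtap genes fell into 3 classes by the codons of their reading frames. In 15 of them glycine and tyrosine codons made up at least 35% of the frame. Of these Krtap5-2 and Krtap5-3 also had more than 30% cysteine codons (34.6% and 35.1%). Another 16 genes had more than 30% cysteine codons, and 21 had neither. Krtap19-9a, 1 of these 21, is annotated as a pseudogene and had no usable frame. The richest stretch of 25 codons in the most abundant gene of each class is shown because it is what separates the classes. Capitals mark glycine and tyrosine codons in Krtap8-1 and Krtap7-1 and cysteine codons in Krtap4-1.
Krtap8-1: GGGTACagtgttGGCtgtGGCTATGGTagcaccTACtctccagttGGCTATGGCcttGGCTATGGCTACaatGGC
Krtap4-1: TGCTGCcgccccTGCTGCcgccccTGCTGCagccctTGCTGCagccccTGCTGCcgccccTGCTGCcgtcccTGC
Krtap7-1: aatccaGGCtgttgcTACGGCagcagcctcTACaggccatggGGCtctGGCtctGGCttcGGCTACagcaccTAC
In Krtap8-1 15 of the 25 codons were marked and in Krtap4-1 13 of 25, where a pair of cysteines alternated with a pair of other residues. Krtap7-1 had 10 of 25 marked, and with 29.9% glycine and tyrosine codons over its whole frame it lay under the limit of the first class.

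The stretch just upstream of the transcription start is shown for the 4 members with the highest mean level, because most members were high in the same library. The sequences are RefSeq's on build GRCm38.p6, 120 bases on the strand of the gene and ending 1 base before the start. Capitals mark TATAAA, the core of the TATA box. Both TATAAA and CTTTGA, the core letters recognised by TCF/LEF factors, were searched on both strands, and these motifs cannot overlap each other.
Tchh, chr3:93442210-93442329, plus strand: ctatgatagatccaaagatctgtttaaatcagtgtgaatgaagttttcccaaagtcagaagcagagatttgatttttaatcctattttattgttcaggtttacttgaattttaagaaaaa
Krt71, chr15:101743098-101743217, minus strand: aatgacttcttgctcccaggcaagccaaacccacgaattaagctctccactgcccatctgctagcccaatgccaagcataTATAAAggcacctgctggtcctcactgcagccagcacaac
Krt25, chr11:99322952-99323071, minus strand: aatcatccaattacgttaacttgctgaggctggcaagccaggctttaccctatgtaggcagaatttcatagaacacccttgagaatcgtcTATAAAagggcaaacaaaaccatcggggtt
Krt27, chr11:99351119-99351238, minus strand: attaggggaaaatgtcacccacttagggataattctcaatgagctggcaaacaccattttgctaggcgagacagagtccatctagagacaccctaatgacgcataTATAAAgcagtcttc
TATAAA began 40 bases before the start in Krt71, 30 in Krt25 and 15 in Krt27, and neither motif was found in the Tchh window. Promoters of 300 bases (250 before the start, 50 after) were given for 63 of the 75 members. TATAAA stood in 50 of these 63 (79.4%), against 13.6% of 32851 promoters of all genes, and on the gene's strand within bases 50 to 11 before the start in 40 of 63 (63.5%), against 2.40%. CTTTGA stood in 19 of 63 member promoters (30.2%), against 16.0% of all. Such matches are descriptions of letters, not of bound sites.

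The libraries held 18004136 to 21085544 counts. The keratins of interfollicular epidermis Krt5 and Krt14 and the dermal collagens Col1a1 and Col3a1 were abundant in all 8 libraries, as the label skin states. The library of baseline butyrate replicate 3 stood apart from the other 7, also from the other mouse of its own group, and values that include it are given with and without it.

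That library held nearly all of the hair transcripts of the study. The 75 genes took 3.46% of its counts (710952 counts, 95% Wilson interval 3.45% to 3.47%). In baseline butyrate replicate 1, which had the same treatment, they took 0.0143% (2668 counts). The baseline CTL mice were at 0.0155% and 0.0121%, the lesional CTL mice at 0.00756% and 0.00780%, and the lesional butyrate mice at 0.0134% and 0.00927%. No group mean stands for both baseline butyrate mice: it was 1.74% ± 2.44 (SD, n = 2), against 0.0138% ± 0.00247 in baseline CTL, 0.00768% ± 0.000172 in lesional CTL and 0.0114% ± 0.00295 in lesional butyrate skin (SD, n = 2 each). These shares are sums over chosen genes and were not tested. Intervals and floors here cover counting error only.

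**Figure D1:**
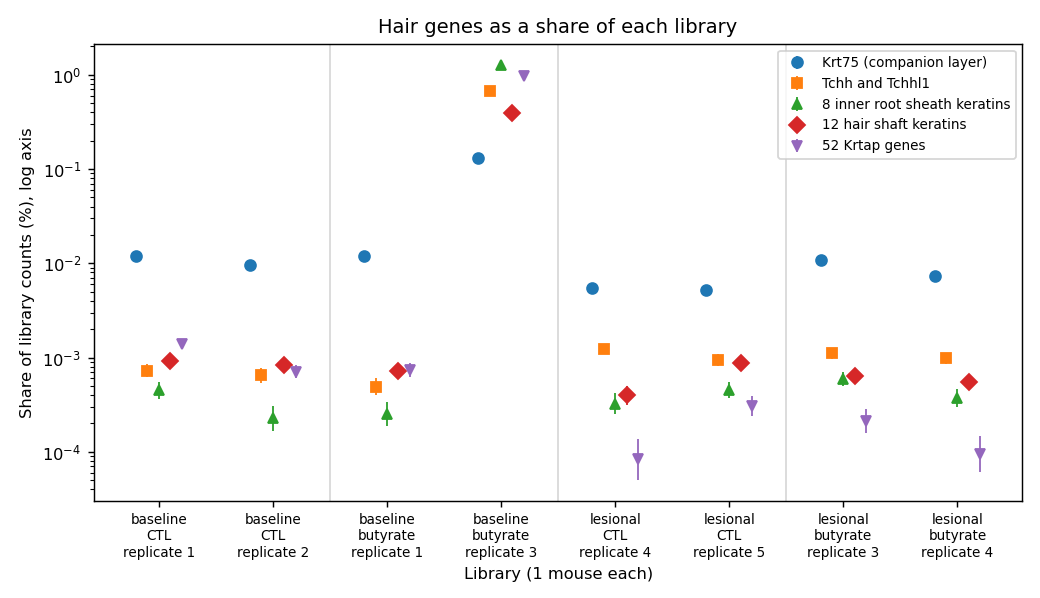
Share of library counts (percent, log axis) of 5 sets of hair genes in each of the 8 libraries. Points are single mice, and bars are 95% Wilson intervals. All 5 sets are highest in baseline butyrate replicate 3, and Krt75 is the largest set in each of the other 7 libraries.

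What the 7 other libraries held was mostly 1 gene. Krt75, the companion layer keratin, made up 66.9% to 84.6% of the members' counts there, against 3.76% in baseline butyrate replicate 3. Without Krt75 the other 74 genes took 0.0020% to 0.00349% of the 7 libraries. In these libraries 11 to 25 of the 75 genes had more than 3 counts and 25 to 55 were at 0. The libraries with the most members detected were baseline CTL replicate 1 (50 of 75 above 0) and lesional CTL replicate 5 (43 of 75), and at these depths 3 counts correspond to 0.138 to 0.169 CPM (counts per 1000000, with library sizes scaled by a trimmed-mean factor). A gene at 0 is therefore only known to lie below about that level. Whether reads of baseline butyrate replicate 3 entered the low counts of other libraries was not tested.

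In baseline butyrate replicate 3, 74 of the 75 genes had their highest CPM of the 8 libraries, against 23.9% of all genes. The exception, Krtap13, was at 0 in every library. With counts under 3 set to 3 for this count alone, 72 of 75 genes were at least 10-fold higher in this mouse than in replicate 1 of its group, against 1.47% of all genes (334 of 22740), and 57 were at least 100-fold higher (120 of all genes). The members under 10-fold were Krtap13, Krtap5-2 with 20 counts and Krtap5-3 with 1 count. Replicate 1 had counts for 22 of the genes, for which ratios below use the counts as they are, with their interval. Lower bounds, with replicate 1 set at 3 counts, apply to the 51 genes at 0 in it and above 3 counts in replicate 3. Both are 1 mouse against 1 mouse, with no replicate check.

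The 8 inner root sheath keratins took the largest share of that library among the roles, 1.275%, followed by the Krtap genes (0.978%), trichohyalins (0.681%), shaft keratins (0.397%) and Krt75 (0.130%). Krt71, the main type II keratin of the sheath, had 81498 counts in baseline butyrate replicate 3 and 11 in replicate 1 (6260-fold, exact 95% interval 3499 to 12540). In the other 6 libraries it had 29 and 9 (baseline CTL), 9 and 24 (lesional CTL), and 18 and 3 (lesional butyrate). Krt25, a type I partner, had 63538 counts against 1 in replicate 1 (53690-fold, interval 9636 to 2121000), and its counts elsewhere were 11, 3, 3, 23, 10 and 1. No other library reached 30 counts for either gene. Krt27 had 41500 counts against 7 (5010-fold, interval 2431 to 12460) and Krt28 21264 against 27 (666-fold, interval 457 to 1010). Krt73 had 23368 counts against 0, Krt72 17001 against 1, Krt26 13465 against 0 and Krt74, annotated as a pseudogene, 227 against 0. Tchh, whose product hardens the sheath and the medulla after crosslinking, was the member with the most counts, 132437 against 90 (1243-fold, interval 1012 to 1546), and Tchhl1 had 7480 against 2 (3160-fold, interval 874.5 to 26100).

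The shaft keratins, a role set here by symbol, varied more in how far they rose above replicate 1. Krt33a (14909 counts against 7, 1800-fold, interval 873 to 4477), Krt35 (11191 against 1), Krt86 (10374 against 2), Krt81 (10086 against 0) and Krt83 (9328 against 1) each had 23 counts or fewer in any other library. Krt34 had 8643 counts against 0, Krt31 6649 against 9, Krt33b 3857 against 0 and Krt82, a cuticle keratin, 1913 against 1. A smaller difference was seen for Krt32, a cuticle keratin (3168 against 79, 33.9-fold, interval 27.1 to 42.9), Krt36 (668 against 26, 21.7-fold, interval 14.7 to 33.5) and Krt84 (802 against 10, 67.8-fold, interval 36.7 to 142). These were also the shaft keratins with the most counts in other libraries. Krt75 differed least of all keratins (26743 against 2256, 10.02-fold, interval 9.595 to 10.46).

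Most Krtap genes had few or no counts outside this library. Of the 75 genes 16 were at 0 in all 7 others, and all 16 were Krtap genes, Krtap13 among them. The 15 glycine-tyrosine genes summed to 55027 counts in baseline butyrate replicate 3 and to 0 in replicate 1. Krtap8-1, the highest of them, had 27304 counts against 0, at least 7690-fold, and 14, 2, 0, 7, 0 and 0 elsewhere. Krtap6-5 had 9067 against 0 and Krtap22-2 5439 against 0. The 16 cysteine-rich genes summed to 44152 counts against 6, all 6 from Krtap17-1 (2244 in replicate 3, 316-fold, interval 145 to 862). Krtap4-1 had 7142, Krtap4-7 6366 and Krtap4-2 5837 counts, each against 0, and Krtap4-1 was at least 2012-fold higher. In the third class Krtap7-1 had 29997 against 1 (25350-fold, interval 4549 to 1001000), Krtap11-1 12110 against 1 and Krtap3-1 10910 against 0. Krtap3-2 was the exception, with 3985 counts against 125 (26.9-fold, interval 22.5 to 32.45).

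Levels between genes were compared per length as TPM (counts divided by exon length and scaled to a sum of 1000000 per library), in baseline butyrate replicate 3 alone. The members made up 7.25% of the TPM of that library, against 0.0152% in replicate 1. Of the 100 genes with the highest TPM there, 19 were members, and of the first 1000, 54; in replicate 1 no member was among the first 1000. Krtap7-1 (7109 TPM) and Krtap8-1 (7000 TPM), both on chromosome 16, came first, followed by Krt71 (5487), Krt25 (4701), Krt27 (3940), Tchh (3347), Krtap3-1 (2658), Krtap6-5 (2243), Krtap22-2 (2193) and Krt28 (1927). The first 10 members held 56.0% of the members' TPM. With 1 library the order of close neighbours in this list has no replicate error.

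**Figure D2:**
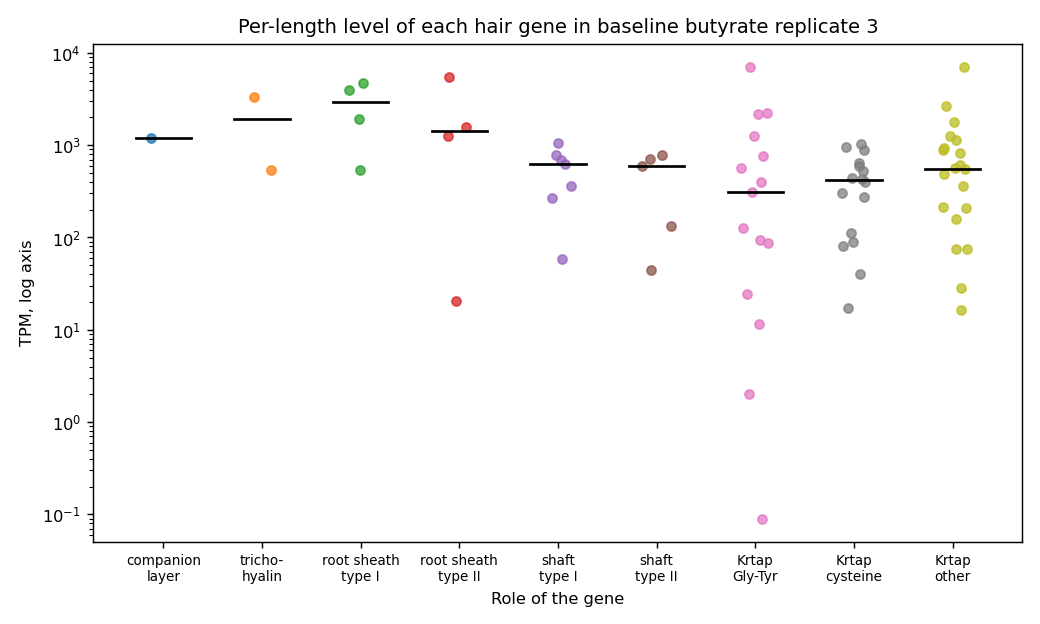
TPM (log axis) of each hair gene in baseline butyrate replicate 3, by role. Points are genes and bars are medians; Krtap13, at 0, is not drawn. Root sheath type I keratins have the highest median of the classes with more than 2 genes, 2934 TPM, and the glycine-tyrosine Krtap genes spread from 0.0891 to 7000 TPM.

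By role, the Krtap genes together were 6.85 times the shaft keratins in TPM, and the inner root sheath keratins 3.19 times the shaft keratins. Type I and type II chains were near each other in both compartments. In the root sheath type I genes summed to 11110 TPM and type II genes to 8348 (ratio 1.33), and in the shaft to 3849 and 2259 (ratio 1.70). Median TPM was 2934 for root sheath type I, 1421 for root sheath type II, 619 for shaft type I and 603 for shaft type II genes. The Krtap medians were 311 (glycine-tyrosine), 418 (cysteine-rich) and 559 (other). Within the glycine-tyrosine class values ran from 0.0891 TPM (Krtap5-3) to 7000 TPM (Krtap8-1). Krtap5-3 and Krtap5-2, the lowest, also met the cysteine limit, and the next gene was Krtap20-2 at 11.57 TPM.

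The members lie in few gene clusters, and all clusters took part. On chromosome 11 between 99315516 and 100105626 (GRCm38), 34 members (11 type I keratins and 23 Krtap genes) held 38.3% of the members' counts in baseline butyrate replicate 3. The 10 type II keratins on chromosome 15 (101431038 to 101802346) held 25.5%, Tchh and Tchhl1 on chromosome 3 19.7%, and the 22 Krtap genes on chromosome 16 (88610705 to 89571183) 16.0%. The lowest were 5 Krtap5 genes on chromosome 7 (0.249%) and 2 Krtap genes on chromosome 10 (0.296%). Neighbours could differ widely outside this library. Krtap3-1, Krtap3-2 and Krtap3-3 lie within 16.5 kb of each other on chromosome 11, and in the baseline CTL mice they had 3 and 0, 163 and 118, and 8 and 4 counts.

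Other genes of the hair follicle, none of them members, were also highest in baseline butyrate replicate 3. All 7 genes listed for shaft and sheath were. Among them S100a3, a calcium-binding protein of the cuticle, was at 1044 CPM, against 0.498 to 1.89 in the other 7 libraries. Padi3, which citrullinates trichohyalin, was at 384 CPM (0.046 to 0.479), and the desmosomal cadherin Dsg4 at 163 CPM (0.0476 to 0.554). The smallest rises were those of Hephl1 (152 CPM, against 39.6 to 78.3) and Tgm3 (134 CPM, against 11.6 to 83.9). All 11 transcription factors and signals were highest as well, 6 of them at least 10-fold above replicate 1, while Gata3 was at 179.6 CPM against up to 172.3 elsewhere. Hoxc13, which drives hair keratin genes, was at 243 CPM (5.85 to 14.95 elsewhere), Msx2 at 124 (1.65 to 3.94), Lef1 at 81.7 (3.05 to 7.197) and Fgf5, a signal that ends hair growth, at 64.5 (0.426 to 1.11). Shh, a signal of the growing matrix, was at 11.97 CPM (0 to 0.166). Of 6 stem cell and outer root sheath markers 3 were highest there, and Krt15 (692 CPM) and Cd34 (174 CPM) were lower than in the other baseline mice.

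Markers of other cells moved with the hair genes in this mouse. All 5 melanocyte genes (Tyr, Dct, Pmel, Mlana, Tyrp1) were highest, their sum at 722 CPM against 24.7 to 44.03 in the other 7 libraries, and so were all 8 dividing-cell genes (840 against 287 to 518). Summed epidermis markers were at 7634 CPM against 12670 to 19380, skeletal muscle at 8489 against 11360 to 40830, macrophages at 119 against 236 to 615 and T cells at 3.56 against 13.0 to 37.1. Among the epidermis markers Krt1 was far lower (371 CPM against 1474 to 3996). Krt5 (3787 against 4173 to 5930) and Krt14 (2413 against 2506 to 5904) were just below the others, and Krt10 (1062) lay within 832.5 to 6932. Summed neutrophil genes, at 17.0 CPM, lay within the range of the other baseline mice (13.2 to 21.9) and below every lesional mouse (346 to 2653). Singly, S100a8 (7.84 CPM), S100a9 and Trem1 lay above those baseline mice, Csf3r (2.76 CPM) and Cxcr2 below them, and Retnlg within their range. Adipocyte markers (1422 CPM) lay within the range of the other baseline mice (1357 to 1854), dermis markers (3433 CPM) lay below them (5947 to 7831), and sebaceous gland markers (3873 CPM) lay below all other libraries (4820 to 7675). The part of these shifts in the hair gene levels was not tested.

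For the contrasts between groups a negative binomial model was fitted over 15163 genes with edgeR's quasi-likelihood test. A gene was called at a Benjamini-Hochberg false discovery rate (FDR) below 0.1 and a fold change above 2, the thresholds of the study. Only 18 of the 75 members passed the filter on low counts: 5 shaft type I keratins, 2 shaft type II, 3 root sheath type I, 2 root sheath type II, Krt75, Tchh, Tchhl1 and 3 Krtap genes. The filter asks for about 10 counts in at least 2 libraries and the high mouse counted among these, so the counts below describe these 18 and not all members.

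Whether butyrate changed hair genes in unexposed skin was the contrast that contained the high mouse. No member was called (0% of all genes were), with an edgeR FDR of 0.71 for all 18. Of these 17 had an unadjusted p under 0.05, against 529 of the 15163 genes tested. All 18 had higher means with butyrate and the median log2 fold change was 9.01, but the groups were free of overlap in 5 of 18, against 29.7% of all genes. DESeq2 called 11 members, against 0.383% of all genes, and limma-voom none, against 0%. Without baseline butyrate replicate 3 edgeR called none, none had an unadjusted p under 0.05, and 8 were higher and 10 lower. Without replicate 1 in its place all 18 were called higher, against 7.91% of all genes. In both of these fits the butyrate arm is 1 mouse, assumed to vary like the other groups. Krt75 was at 127 CPM in baseline butyrate replicate 1 against 127 and 101 in baseline CTL, Tchh at 5.06 against 7.59 and 6.70, and Krtap3-2 at 7.03 against 9.03 and 6.53. These 3 genes, the best covered ones, thus lay within or near the range of the CTL mice in 1 butyrate mouse and far above it in the other.

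Lesional against baseline skin in CTL mice did not involve baseline butyrate mice except through the shared spread. With all 8 libraries edgeR called no member, against 3.58% of all genes. In that fit 1 of 18 members had an unadjusted p under 0.05, against 2983 of the 15163 genes tested. Limma-voom called none (3.81% of all genes) and DESeq2 3 (7.21%). Without baseline butyrate replicate 3 edgeR called 7 of 18, against 12.4% of all genes. Of these 3 were higher (6.3% of all genes) and 4 lower (6.13%), and with the 4 CTL libraries alone edgeR called 5 of 9 tested, against 12.9% of all genes. The groups did not overlap in 14 of the 18, against 75.2% of all genes.

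The 4 lower genes were Krtap3-2, Krt32, Krt31 and Krt75. Krtap3-2 (ENSMUSG00000069721, chromosome 11, 99555823 to 99556853, minus strand) was at 9.03 and 6.53 CPM in baseline CTL and 0.319 and 0.506 in lesional CTL mice. Both lesional mice lay more than 10-fold below both baseline mice. The log2 fold change was -4.20 with a standard error of 1.59 and an edgeR FDR of 0.227 over all 8 libraries, and a standard error of 0.42 and an FDR of 0.00306 without baseline butyrate replicate 3. Its transcript shares a stretch of 373 bases at 98.7% identity with Krtap3-3, which had 8, 4, 0 and 4 counts in the same mice, and reads from it could have been split or dropped. Krt32 fell from 5.54 and 6.31 CPM to 0.532 and 1.29 without overlap (log2 fold change -2.67, standard error 0.457, edgeR FDR 0.0114 without baseline butyrate replicate 3, and 0.365 with it). Krt31 had 12 and 5 counts in baseline CTL and 1 and 2 in lesional CTL mice (log2 fold change -2.57, edgeR FDR 0.0558 without that mouse, 0.746 with it). Krt75, with the most counts, was at 127 and 101 CPM against 52.9 and 50.6, a log2 fold change of -1.14 (standard error 0.207, edgeR FDR 0.0140 without that mouse, 0.494 with it).

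The 3 higher genes were Krt84 and Krt86, grouped by symbol with the type II shaft keratins, and Krt27, grouped with the root sheath keratins. Krt84 was at 0.388 and 0.332 CPM in baseline CTL and 2.29 and 4.79 in lesional CTL mice (log2 fold change 3.28, standard error 0.518, edgeR FDR 0.00888 without baseline butyrate replicate 3, 0.344 with it). Its counts were 7 and 6 against 43 and 104, so both lesional mice were above both baseline mice, while they differed from each other by more than 2-fold. Krt27 rose from 3 and 5 counts to 11 and 16, and Krt86 from 2 and 1 to 7 and 13, both at an edgeR FDR near the threshold (0.0536 and 0.0489) without the high mouse, and at 0.831 and 0.784 with it. Krt86 shares 95.1% of 1395 bases with Krt81, which had 3, 0, 0 and 3 counts. Baseline butyrate replicate 3 had 41500 counts of Krt27 and 10374 of Krt86, and any entry of its reads here was not tested. Tchh was at 7.59 and 6.70 CPM against 11.1 and 8.98, without overlap but under 2-fold (log2 fold change 0.49).

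Among the follicle genes that are no members, edgeR called only Lhx2, a stem cell factor, in this contrast with all 8 libraries (log2 fold change -1.55, FDR 0.0884). Of all genes 3.58% were called. In the edgeR fit without baseline butyrate replicate 3, 6.13% of all genes were called lower and 6.3% higher. That fit called 3 of 10 tested factors and signals lower (Lef1, Gli1 and Wnt10b). Of 6 stem cell and outer root sheath genes it called 3 lower (Krt15, Lgr5 and Lhx2) and Krt17, an outer root sheath and wound keratin, higher. Of 5 tested genes of shaft and sheath it called 1 higher, Tgm3, a crosslinking enzyme also of the epidermis. The summed muscle markers were at 31640 and 40830 CPM in baseline CTL and 14000 and 20350 in lesional CTL mice. Epidermis markers summed to 17970 and 17500 against 13590 and 12670, but did not move together. Among them Krt14 was higher in lesional skin (2761 and 2802 against 5904 and 4767 CPM) and Krt5 overlapped. Krt1 and Krt10 were lower. Neutrophil markers were at 13.2 and 16.9 against 2653 and 1651. The part of these markers in the hair gene values was not tested.

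**Figure D3:**
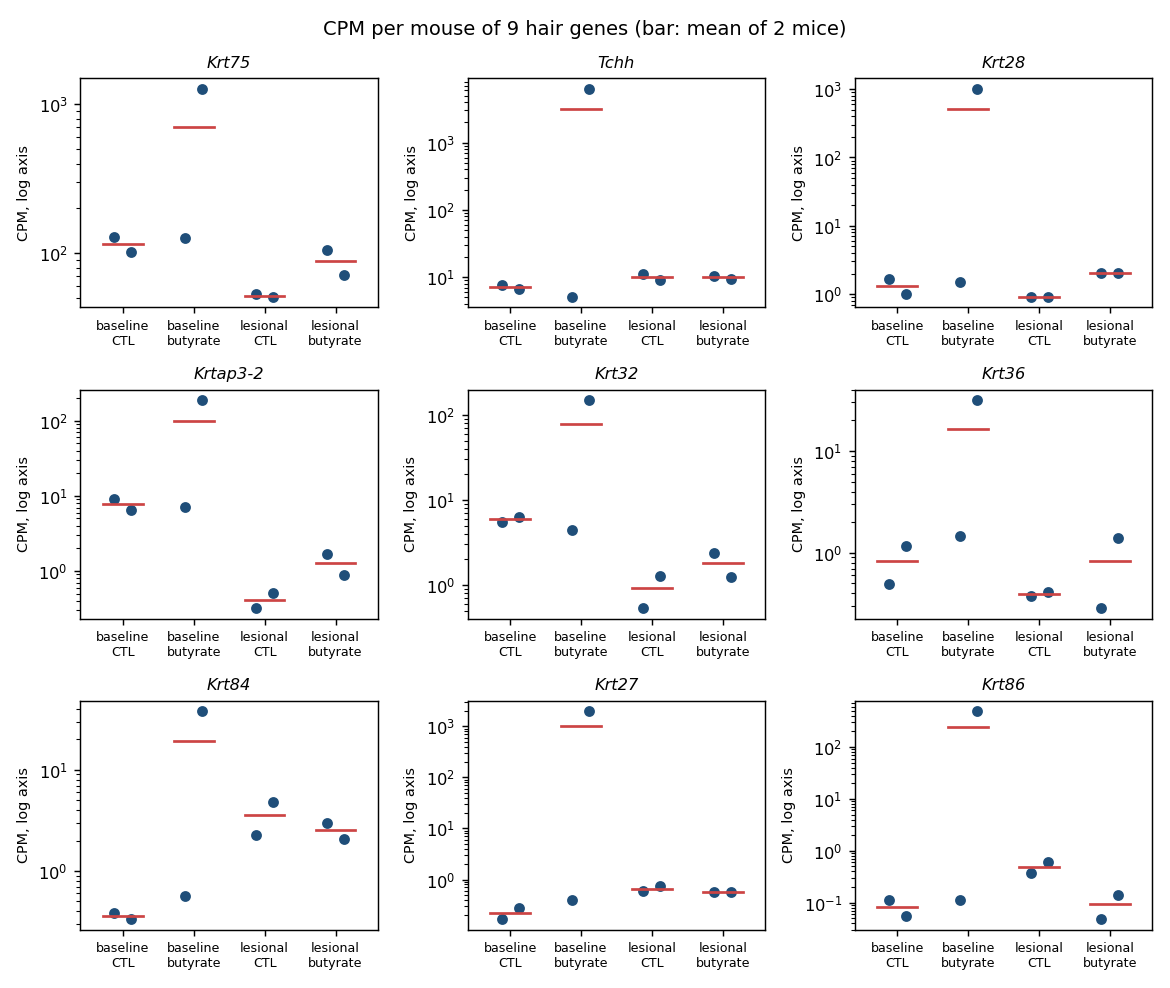
CPM (log axis) of 9 hair genes in each mouse, by group; points are mice and bars are means of 2. In all 9 panels the lesional CTL mice do not overlap the baseline CTL mice. This held for 14 of the 18 tested members, against 75.2% of all genes. The tested members that overlap (Krt25, Krt34, Krt71 and Krtap8-1) are not drawn. In each panel baseline butyrate replicate 3 is the highest point.

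The same exposure contrast in butyrate mice depended on which baseline mouse was counted. With both, all 18 tested members were lower in lesional skin (median log2 fold change -9.73), yet edgeR called none, against 0.35% of all genes. The groups did not overlap in 6 of 18, against 32.5% of all genes. DESeq2 called 17 (4.6% of all genes) and limma-voom none (0.277%). Without baseline butyrate replicate 3 edgeR called 3, against 6.01% of all genes, 2 higher (2.54%) and 1 lower (3.48%). Krtap3-2 was lower, at 1.67 and 0.882 CPM in lesional butyrate mice against 7.03 in baseline butyrate replicate 1 (log2 fold change -2.46, standard error 0.407, FDR 0.0413). Krt84 was higher, at 2.95 and 2.09 CPM against 0.562 (log2 fold change 2.15, FDR 0.0990), and Krt73 was called higher with 36 and 18 counts against 0. With the high mouse the value of Krt84 was -2.94, of opposite sign. The CTL and butyrate contrasts share no mice, and in both Krtap3-2 was lower and Krt84 higher in lesional skin when that mouse was left out; the comparison there rests on 1 baseline butyrate mouse, whose spread was taken from the other groups. Skeletal muscle markers were at 11360 and 20850 CPM in lesional butyrate mice against 37350 in baseline butyrate replicate 1, and neutrophil markers at 771 and 346 against 21.9, and their part in these values was not tested.

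Butyrate against CTL in lesional skin, the comparison the study explored across all genes, was for hair genes a contrast of 4 mice with low hair gene counts. EdgeR called no member, against 0% of all genes. None had an unadjusted p under 0.05, against 734 of the 15163 genes tested. Limma-voom called none, against 0.0066%. DESeq2 called Krt34 and Krtap8-1 (0.818% of all genes), which had 0 and 6 and 0 and 7 counts in lesional CTL and 0 and 0 in lesional butyrate mice, so each rested on 1 mouse. With baseline butyrate replicate 3 left out edgeR again called no member, against 1.24% of all genes. There 4 of 18 members had an unadjusted p under 0.05, against 2260 of the 15163 genes tested. The median log2 fold change was -0.13, and -0.23 with genes at 0 in a group set at their limit of 3 counts. It turned positive when either lesional CTL mouse was left out (0.07 without replicate 4, 0.27 without replicate 5). Of the 18 genes 7 were higher and 10 lower, and the groups did not overlap in 6, against 44.9% of all genes.

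The 3 best-covered genes without overlap in that contrast were higher with butyrate. Krt75 was at 105 and 71.0 CPM in lesional butyrate and 52.9 and 50.6 in lesional CTL mice (log2 fold change 0.76, standard error 0.895, edgeR FDR 0.9998). Krtap3-2 was at 1.67 and 0.882 against 0.319 and 0.506 CPM (log2 fold change 1.59, standard error 1.70). Krt28 was at 2.05 and 2.04 against 0.905 and 0.921 CPM (log2 fold change 1.16, standard error 2.33). None of these differences passed the test, and each standard error exceeded its difference. When that mouse was left out the standard errors were 0.206, 0.477 and 0.33, with edgeR FDRs of 0.175, 0.204 and 0.187. Krt86 was lower, with 1 and 3 counts against 7 and 13. Tchh did not separate the groups, at 10.4 and 9.37 against 11.1 and 8.98 CPM. Summed epidermis markers were at 19380 and 17880 CPM in lesional butyrate against 13590 and 12670 in lesional CTL mice. Of these Krt1, Krt5 and Krt10 were higher, while Krt14 overlapped (4656 and 4908 against 5904 and 4767 CPM). Neutrophil markers were at 771 and 346 against 2653 and 1651. The part of these markers in the hair gene values was not tested.

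Few other Krtap genes separated any groups, and outside the high mouse those that did rested on at most 10 counts. Between baseline and lesional CTL mice, Krtap1-5 had 10 and 1 against 0 and 0 counts and Krtap19-5 6 and 1 against 0 and 0, while Krtap29-1 had 0 and 0 against 1 and 1. Krtap3-3 had 8 and 4 counts at baseline and 0 and 4 in lesional CTL skin. In lesional mice, Krtap7-1 had 0 and 1 counts with butyrate against 1 and 9, Krtap17-1 1 and 0 against 4 and 2, and Krtap4-1 and Krtap29-1 0 and 0 against 1 and 1. Of these only Krtap1-5 passed the filter on low counts, and edgeR did not call it in any contrast with all 8 libraries. In baseline butyrate mice Krtap17-1 had 6 and 2244 counts against 6 and 3, so that the groups were separated by its scaling alone in replicate 1.

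The difference between both butyrate effects was the last contrast. No member was called by edgeR, against 0% of all genes, while all 18 had negative values (median log2 difference -9.77). Limma-voom called none (0% of all genes) and DESeq2 4 (0.244%). Without baseline butyrate replicate 3 the median was 0.69, with 13 members positive and 5 negative. Across groups, Krt75 was lowest in lesional CTL mice (50.6 and 52.9 CPM), next in lesional butyrate mice (71.0 and 105), and at 101 to 127 in the baseline mice other than baseline butyrate replicate 3, where it was 1271 CPM; lesional butyrate and baseline mice overlapped. For Krtap3-2 the order was lesional CTL, lesional butyrate and baseline, without overlap between these 3 steps.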

How the data were processed

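RNA of 8 skin samples had been prepared with an Illumina TruSeq kit and sequenced on an Illumina HiSeq instrument. The authors aligned reads with STAR 2.5.2 to GRCm38 within RNASik and counted them per gene with featureCounts. The deposited table, labelled protein-coding, holds raw counts of reverse-strand reads. How reads matching several genes were counted is not given in the sources used here, and 19 members share at least 200 bases at 95% identity or more with another gene. Krtap12-1 overlaps Tspear on its strand, and Krt32 an antisense gene.

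Members and gene lists were chosen with earlier results of these data known. Members were all genes of the stated symbols, and those named were all keratins and trichohyalins, the 3 most abundant Krtap genes of each class, and in each contrast up to 5 Krtap genes a direction with groups that did not overlap and a mean of at least 1 CPM; others were named after their values were seen. Counts were fitted with edgeR 4.0.16 (TMM, filterByExpr, robust quasi-likelihood, 1 mean per group, all 8 libraries), with standard errors taken as the log2 fold change over the root of its F; alternatives used limma 3.58.1 and DESeq2 1.42.0. The fit was tested on simulated data with 200 changed genes, a common coefficient of variation of 0.142 and no library that stood apart. The main fit had 0.276 and such a library, so the simulation does not cover it. Fits without 1 library kept the 15163 genes. Coordinates, exon lengths and reading frames came from GENCODE vM21 (all 75 members matched), and promoters from RefSeq. Classes were set on codons because no protein table was used, and copies with blastn 2.17.0 on transcripts. Intervals of a ratio between 2 libraries are exact conditional binomial ones. The series text counts 16 samples, of which 8 were analysed here.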

Additional observations from a re-analysis of the deposited data

Results flagged for a closer look

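For 2 of the 18 tested members the mice of both butyrate contrasts moved in opposite directions without overlap, up in baseline skin and down in lesional skin. Taken singly, the groups did not overlap in 29.7% of all genes in baseline and 44.9% in lesional skin. The share of all genes with both was not computed. Krt27 was at 0.394 and 1972 CPM in baseline butyrate against 0.166 and 0.277 in baseline CTL mice, and at 0.571 and 0.557 in lesional butyrate against 0.586 and 0.737 in lesional CTL mice. The difference of both effects was -12.31 on the log2 scale (edgeR, FDR 0.84), and it did not pass the test. Krt86 was at 0.113 and 493 CPM against 0.111 and 0.0554 at baseline, and at 0.0476 and 0.139 against 0.373 and 0.598 in lesional skin, a difference of -13.74 (edgeR, FDR 0.84). Some of the separations were due to scaling alone: Krt86 had 2 counts in both baseline butyrate replicate 1 and baseline CTL replicate 1, and Krt27 had 12 and 12 counts in lesional butyrate against 11 and 16 in lesional CTL mice. In both genes the size came from baseline butyrate replicate 3. Without it the differences were -1.04 and -2.72, and the remaining counts were between 1 and 16 per library. With 2 mice a group, no sample could be tested for standing apart within its group.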

How the results depend on the processing

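No paired analysis was possible because the groups compared share fewer than 2 replicate numbers. With 2 mice a group, 57 of 75 members were below the filter on low counts and were tested only in the fit without it (74 members). The high mouse counted in that filter. Calls without baseline butyrate replicate 1, in contrasts with baseline butyrate mice, therefore only restate the high counts of that mouse. In none of the 5 contrasts was a member called by edgeR with RLE size factors, scaling without the member genes, library totals alone or no low-count filter, or by limma-voom. DESeq2 called 2 (lesional butyrate against CTL), 11 (baseline butyrate against CTL), 3 (lesional against baseline in CTL), 17 (the same in butyrate mice) and 4 (difference of the butyrate effects), and the fit of the CTL libraries alone called 5. Leaving out each library in turn gave 0 to 7 calls in the CTL exposure contrast, 0 to 18 in both contrasts with baseline butyrate mice, 0 to 17 for the difference and 0 for butyrate in lesional skin; the high counts came without baseline butyrate replicate 1, where 22.9%, 17.7% and 20.8% of all genes were called (baseline butyrate, butyrate exposure, difference), and in the CTL contrast without either baseline butyrate mouse (12.4% of all genes without replicate 3), where the common coefficient of variation was 0.142 in place of 0.276. Chosen after seeing the data, fits without baseline butyrate replicate 3 called 8 and 2 members with limma-voom (CTL and butyrate exposure contrasts, 12.4% and 6.04% of all genes) and 4, 2 and 1 with DESeq2 (these and butyrate in lesional skin, 11.6%, 6.94% and 2.5% of all genes).

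The median log2 fold change changed sign without single mice. It ranged from -0.17 to 0.27 for butyrate in lesional skin (0.07 and 0.27 without lesional CTL replicate 4 or 5), from -0.28 to 10.10 for butyrate in baseline skin, from -1.13 to 0.59 for exposure in CTL mice (0.59 without baseline CTL replicate 1) and from -10.77 to 0.69 for the difference. In butyrate mice the exposure value turned positive without baseline butyrate replicate 3 for Krt84 (2.15, with limma-voom 2.08 and DESeq2 2.18) and Tchh (0.97, 0.96 and 0.98), and by library left out it ranged from -3.92 to 2.15 and from -9.31 to 0.97. The summed share of lesional CTL mice was 0.00818% of counts without mitochondrial and member genes, in place of 0.00768%. By mouse left out, group shares ranged from 0.0121% to 0.0155% (baseline CTL), 0.0143% to 3.46% (baseline butyrate), 0.00756% to 0.00780% (lesional CTL) and 0.00927% to 0.0134% (lesional butyrate); leaving out 2 members with near-identical copies did not change them beyond replicate spread. Other causes were not tested.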
